A study of Mus musculus with 6 samples.

Results

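The RNAs described here are U6, U5 and U1, small nuclear RNAs of the spliceosome, and the 5S ribosomal RNA, each read by 1 probe of a microRNA (miRNA) array. The probes are named RNU6-1_RNU6-2 (array ID 11279), RNU5 (145657), RNU1 (145659) and 5S_rRNA (46202). They were chosen from the 23 probes of the array for small RNAs other than miRNAs by signal, the rule asking for a mean background-subtracted intensity of 50 or more on 3 or more of the 6 arrays. These intensities chose the probes and are given as a description. The array carried 1149 probes for mouse miRNAs and such small RNAs, so these were 4 of 1149. Each of the 4 reached 50 on every array. Just outside the rule was a second U6 probe, RNU6-1, which reached 50 on 2 arrays. It had 37, 181 and 84.2 in the knockdown line at 24, 48 and 72 h. In the control line it had 24.75, 0 and 11. The nearest to the limit among the 4 was the U5 probe, whose lowest value was 66.5. The other 18 small RNA probes were for small nucleolar RNAs, of which 9 met the same limit.

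The cells were CT26, derived from a mouse colorectal tumour, and held a pSUPER gfp-neo vector with a short hairpin RNA against TGF-β1 (the knockdown line) or with a control hairpin (the control line). TGF-β1 is a secreted cytokine that signals through SMAD transcription factors. Each line gave 1 array at 24, 48 and 72 h, so there were 3 arrays of each line, and both lines carry the vector backbone with its gfp and neo genes. The labels call the transfection stable and also count the hours from it, name no clone and give separately grown cultures, and the Tgfb1 transcript was not on the array, which leaves the labels unchecked. Total RNA was labelled at its 3′ end with the dye Hy3 by T4 RNA ligase after phosphatase treatment, and the array was read in 1 colour.

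In the spliceosome U1 pairs with the 5′ splice site of an intron, U5 holds the exon ends by its loop, and U6 pairs with U2 and forms the catalytic centre. 5S rRNA is a structural RNA of the large ribosomal subunit. U6 and 5S rRNA are made by RNA polymerase III, U1 and U5 by RNA polymerase II, as are most miRNA precursors. Because all cells contain them in large amounts, U6 and 5S rRNA are widely used as reference RNAs to which miRNA measurements are scaled, which requires that the reference itself stays level between samples. The values below give how level each of them was on these arrays.

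Of the arrays, that of the control line at 48 h had the highest median background, 181 against 89 to 149 on the others, and the fewest mouse miRNA probes that reached 50, 321 against 344 to 374. Its dye control spots were the brightest, with a median of 14132 against 4065 to 7767. The highest foreground intensity of a spot lay between 23111 and 49713 on an array, and the highest of 7 negative control probes between -52.5 and 62.2 after background subtraction. Levels of different probes are not compared, since a probe's brightness also depends on its own sequence.

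The U6 probe was the only one of the 4 whose lines did not overlap by intensity. Its mean background-subtracted intensity came to 952.5, 2043 and 1402.5 in the knockdown line at 24, 48 and 72 h, and to 893, 289 and 672 in the control line. All 3 knockdown arrays were above all 3 control arrays, by a narrow margin between the knockdown array of 24 h and the control array of 24 h. Every knockdown array above every control array was found for 4.42% of the 385 probes tested for differences, and for 1 of the 4 RNAs. Every control array above every knockdown array was found for 3.9% of them and for 0 of the 4. The U6 separation rested on the spots in block 8. From blocks 19 to 36 alone the knockdown arrays of 24 and 72 h, at 748 and 239.5, were below the control array of 24 h, at 885.5, and on the normalised log2 scale the lines overlapped. The lowest value by far was that of the control line at 48 h. In the authors' deposited table U6 had ratios of 2.86, 5.94 and 3.76 in the knockdown line and 2.26, 0.461 and 1.82 in the control line at 24, 48 and 72 h, in the same order. These ratios come from the same spots, divided by 1 number per array, so the order is no separate result. The second U6 probe, RNU6-1, also had its knockdown arrays above its control arrays, but it reached 50 on only 2 arrays and was not tested.

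The U5 probe had an intensity of 252.5 at 24 h, 1465 at 48 h and 667.5 at 72 h in the knockdown line. In the control line it had 528 at 24 h, 66.5 at 48 h and 660 at 72 h. The highest and the lowest array were thus those of the same time point, 48 h, and the lines overlapped. At 72 h the lines stood side by side, while at 24 h the control line was the higher. The 66.5 of the control line at 48 h was barely above the limit of 50, and 2 of its 4 spots, with 24 and 34, were below it.

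The U1 probe had an intensity of 807 at 24 h, 681 at 48 h and 232 at 72 h in the knockdown line. In the control line it had 555, 113 and 338.5. Here too the control array of 48 h was the lowest, but the highest was the knockdown array of 24 h, and the lines overlapped. Within the knockdown line the 72 h array was the lowest for U1. By mean intensity it was not the lowest for U6 or U5, but on the normalised log2 scale it was for U6 too.

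For the 5S rRNA probe the arrays stood in another order. Its intensity came to 1527, 2972 and 2128 in the knockdown line at 24, 48 and 72 h, and to 1883, 2523 and 917 in the control line. The control array of 48 h, lowest for the other 3, was the second highest for 5S rRNA, and the lowest was the control array of 72 h. The highest was the knockdown array of 48 h, as for U6 and U5. The lines overlapped.

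**Figure D1:**
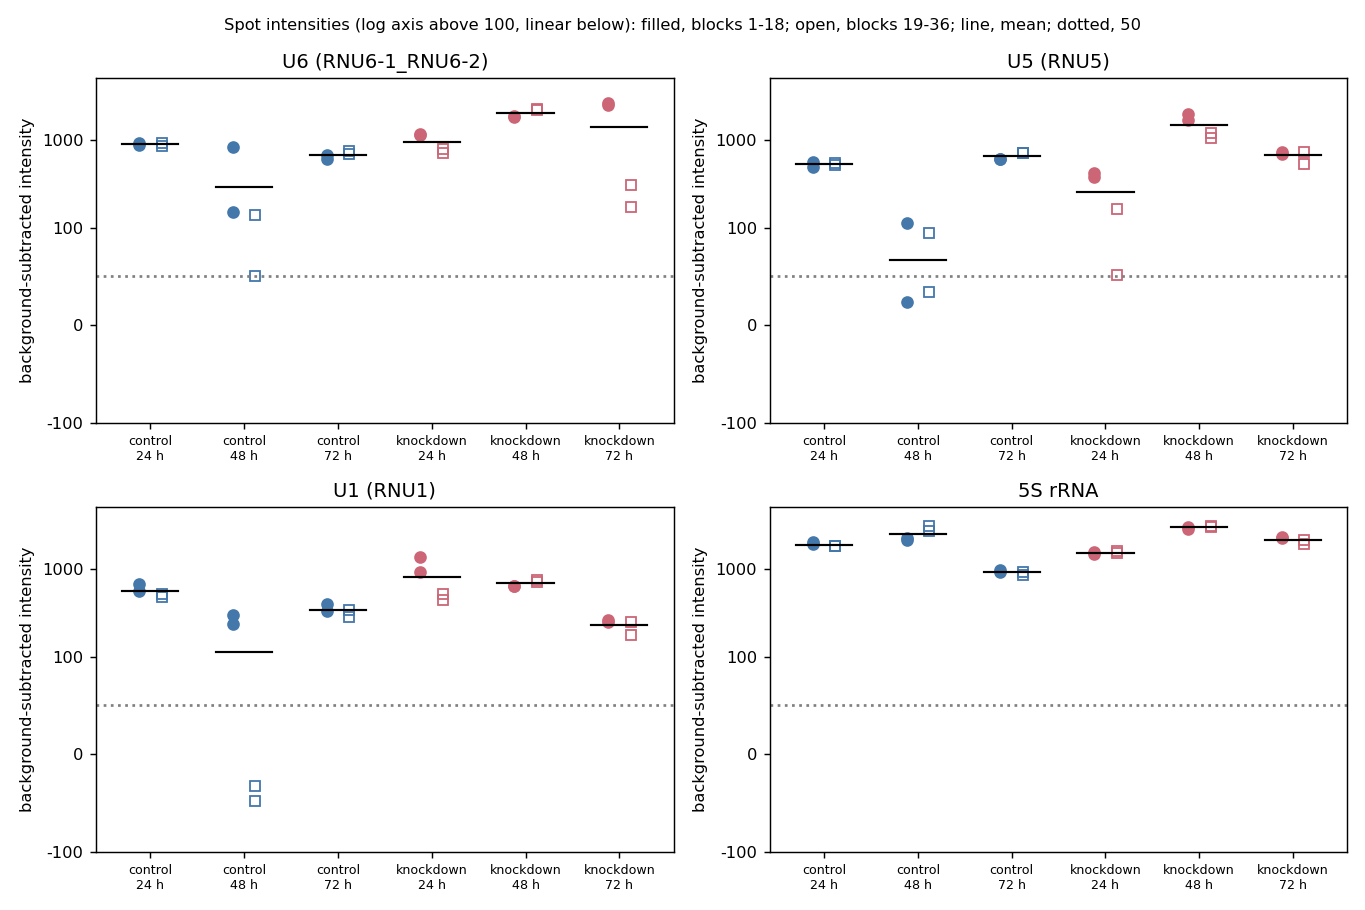
Background-subtracted intensity of each of the 4 spots of the U6, U5, U1 and 5S rRNA probes on each array (vertical axis logarithmic above 100 and linear below), with filled circles for spots in blocks 1 to 18, open squares for spots in blocks 19 to 36, black lines for the mean of the 4 spots and a dotted line at 50. The 4 spots of 5S rRNA lie close together on every array, whereas those of U6 run from 173 to 2650 on the knockdown array of 72 h, and those of U1 from -48 to 298 on the control array of 48 h.

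How well a value was measured differed between the RNAs. Each probe was printed 4 times, as a pair of spots in one of blocks 1 to 18 and a pair in one of blocks 19 to 36. For 5S rRNA the pairs differed by at most 0.35 on the log2 scale (normexp background correction with an offset of 50), for the control line at 48 h. The SD over the 4 spots lay between 0.04 and 0.22. Of the 24 combinations of the 4 RNAs with the arrays, 5 had pairs that differed by at least 2-fold, none of them of 5S rRNA, each time lower in blocks 19 to 36.

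The largest of these gaps was that of U6 on the knockdown array of 72 h. Its spots in block 8 had intensities of 2481 and 2650, and those in block 26 had 173 and 306, a 7.79-fold difference after background correction. Local background was much alike at both places, 89 and 100.5. Of the 282 tested miRNA probes that reached 50 on that array, 5 (1.77%) had a gap as large. The other 54 probes measured in the same blocks had gaps from -1.90 to 0.76 on the log2 scale, with a median of -0.08, so none reached the U6 gap of -2.96. The mean of 1402.5 therefore stands for no spot of this probe.

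On the control array of 48 h the U6 spots were 818 and 150 in block 8 and 50 and 139 in block 26. The U1 spots there were 298 and 235 in block 5 and -33 and -48 in block 23, so U1 was above background in only one of its blocks. On the knockdown array of 24 h the U1 spots were 1349 and 924 in block 5 and 445 and 510 in block 23. The U5 spots on that array were 415 and 380 in block 14 and 164 and 51 in block 32. Gaps of at least 2-fold were also found in 4.00% to 18.5% of the tested miRNA probes that reached 50 on the array in question, the most on the knockdown array of 48 h, where 58 of 60 such probes were lower in blocks 19 to 36. On that array U6, U1 and 5S rRNA had gaps of 0.24, 0.16 and 0.04, and U5 one of -0.63.

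For the comparison of the lines the log2 intensities were quantile normalised, and limma was fitted to all 385 tested probes with the time point as a factor. None of the 4 RNAs passed the threshold, where 0% of the 385 tested probes did. Before adjustment 2 probes had a p under 0.05, neither of them among the 4. All 4 differences were above 0, and each interval included 0.

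For U6 the normalised level (log2) averaged 10.20 ± 0.55 (SD, n = 3) among knockdown arrays and 9.53 ± 0.83 (SD, n = 3) among control arrays. They differed by 0.67 (95% interval -0.81 to 2.15, limma adjusted p = 0.999). On this scale the lines overlapped, since the knockdown array of 72 h, at 9.64, was below the control arrays of 24 and 72 h. The size was larger than that of most probes: 17.1% of the tested probes had a larger difference in either direction.

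U1 had 9.31 ± 0.76 (SD, n = 3) in the knockdown line and 8.86 ± 0.84 (SD, n = 3) in the control line, which differed by 0.45 (interval -0.93 to 1.83, limma adjusted p = 0.999). U5 had 9.44 ± 0.83 (SD, n = 3) and 9.09 ± 1.08 (SD, n = 3), which differed by 0.35 (interval -1.21 to 1.92, limma adjusted p = 0.999). 5S rRNA had 11.10 ± 0.21 (SD, n = 3) and 10.95 ± 0.61 (SD, n = 3), which differed by 0.15 (interval -1.14 to 1.44, limma adjusted p = 0.999). The median difference over all tested probes was -0.09. The upper bound of each interval exceeded a 2-fold difference, as did the lower bounds of U5 and 5S rRNA, so these data do not show that the RNAs were level between the lines.

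The signs of the U6, U5 and U1 differences turned when 48 h was left out. Without the arrays of 48 h the U6 difference was -0.07, that of U5 -0.69 and that of U1 -0.14 (limma adjusted p = 0.977 each). Without those of 72 h the 5S rRNA difference was -0.25 (limma adjusted p = 0.996). Leaving out only the control array of 48 h, with no term for time, gave -0.26 for U5 and -0.02 for U1 (limma adjusted p = 0.919 and 0.994), while U6, at 0.19, and 5S rRNA, at 0.44, kept their sign (limma adjusted p = 0.919 and 0.910). Without the 48 h arrays 6 probes passed the threshold in limma, among them SNORD2, a small nucleolar RNA, at -2.45 (adjusted p = 0.00167), and none of the 4 RNAs did. That fit leaves few residual degrees of freedom, and with all 6 arrays SNORD2 stood at -1.45 (limma adjusted p = 0.999).

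At the single time points 1 array of each line was compared, with no replicate check. A difference of 2-fold or more at 48 h was found for 3 of the 4 RNAs, all higher in the knockdown line, where 22.7% of the 459 probes measured at that time were higher and 12.9% lower by as much. U5 was 5.40-fold higher there, a log2 difference of 2.43 with a standard error of 0.22 over replicate spots. U6 was 4.48-fold higher, at 2.16 with a standard error of 0.45, and U1 3.07-fold higher, at 1.62 with one of 0.45. These errors cover spot noise only. The control array of 48 h, which they are set against, had spots of U5 and U1 near or below background. Its U6 spots were 818, 150, 50 and 139, so the mean leaned on 1 bright spot. The sizes of all 3 differences are thus uncertain. Over the alternatives the difference ran from 1.79 to 4.08 for U5, from 1.22 to 3.32 for U6 and from 0.51 to 2.93 for U1. U1 was below 2-fold from blocks 1 to 18 alone, at 0.51, and with spike control scaling, at 0.84. 5S rRNA stood at -0.33 (standard error 0.11), lower in the knockdown line, and at 0.22 without scaling, so its direction at 48 h flipped with the scaling.

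At 24 h none of the 4 RNAs differed by 2-fold after quantile normalisation, where 2.58% of 427 probes were higher and 8.67% lower by as much. U5 stood at -0.84 (standard error 0.34), U1 at 0.37 (0.32), U6 at 0.15 (0.16) and 5S rRNA at -0.18 (0.04). U5 was lower in the knockdown line by over 2-fold with plain subtraction of the background, at -1.43, and from blocks 19 to 36 alone, at -1.45, but stood at -0.24 from blocks 1 to 18. The 5S rRNA value was close to the median of all probes measured at that time, -0.12, and ran from -0.27 to 0.28 over the alternatives.

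At 72 h none of the 4 passed 2-fold after normalisation, where 18.3% of 471 probes were higher and 25.1% lower by as much. 5S rRNA came nearest, 1.95-fold higher in the knockdown line, at 0.97 with a standard error of 0.07. Over the alternatives it ran from 0.63 to 1.54. U1 stood at -0.65 (0.11) and U5 at -0.53 (0.11), and U5 turned to 0.41 when the arrays were scaled by the median of the miRNA probes. With that scaling U1 was at -0.08, and with plain subtraction of the background it was lower by over 2-fold, at -1.12. For U6 the difference was -0.29 with a standard error of 0.86. From the spots in blocks 1 to 18 alone U6 was higher in the knockdown line by 1.70 on the log2 scale, and from those in blocks 19 to 36 alone it was lower, at -1.36, each after its own normalisation. The direction for U6 at 72 h is therefore not settled by the spots of this probe. The second U6 probe, RNU6-1, was higher in the knockdown line at 72 h, at 84.2 against 11. It was dim, with the control value below the limit of 50, and was not tested.

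Change over time was fitted as a daily slope adjusted for line. It was -0.48 ± 0.36 (SE) per day for U1, 0.30 ± 0.41 (SE) for U5, -0.19 ± 0.37 (SE) for U6 and -0.09 ± 0.32 (SE) for 5S rRNA. None passed the threshold (limma adjusted p = 1 each), where 0% of the tested probes did and 8 had a p under 0.05 before adjustment. The U1 slope was steeper than those of most probes, with 6.23% having a larger size, but without the arrays of 24 h it was 0.05 (limma adjusted p = 1.00), so its sign rested on these.

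The difference of the slopes between the lines was 0.57 ± 0.68 (SE) per day for 5S rRNA, -0.51 ± 0.74 (SE) for U1, -0.22 ± 0.81 (SE) for U6 and 0.16 ± 0.92 (SE) for U5. None passed the threshold (limma adjusted p = 0.939 for 5S rRNA and U1, 0.949 for U6 and 0.963 for U5), where 0% of the tested probes did and 9 had a p under 0.05 before adjustment.

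The spread over all 6 arrays bears on their use as references. After quantile normalisation the SD over the arrays was 0.42 for 5S rRNA, 0.73 for U6, 0.76 for U1 and 0.88 for U5 on the log2 scale, against a median of 0.54 over the tested probes. In terms of levels, the highest array was 2.33-fold above the lowest for 5S rRNA, 4.48-fold for U6, 4.00-fold for U1 and 5.40-fold for U5. A smaller SD was found for 31.7% of the tested probes in the case of 5S rRNA, and for 72.2%, 74.3% and 85.5% in the cases of U6, U1 and U5. U6, U1 and U5 thus varied more than most tested probes on this scale. With plain subtraction of the background the U6 SD was 1.07, close to the median of 1.06 over the miRNA probes. 5S rRNA varied less than most after quantile normalisation, but after scaling by the median of the miRNA probes or by the spike control probes 53.0% of probes had a smaller SD than it. With the spike control scaling the figures were 37.7% for U1, 42.3% for U6 and 56.4% for U5, so the order of the 4 depends on the scaling.

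**Figure D2:**
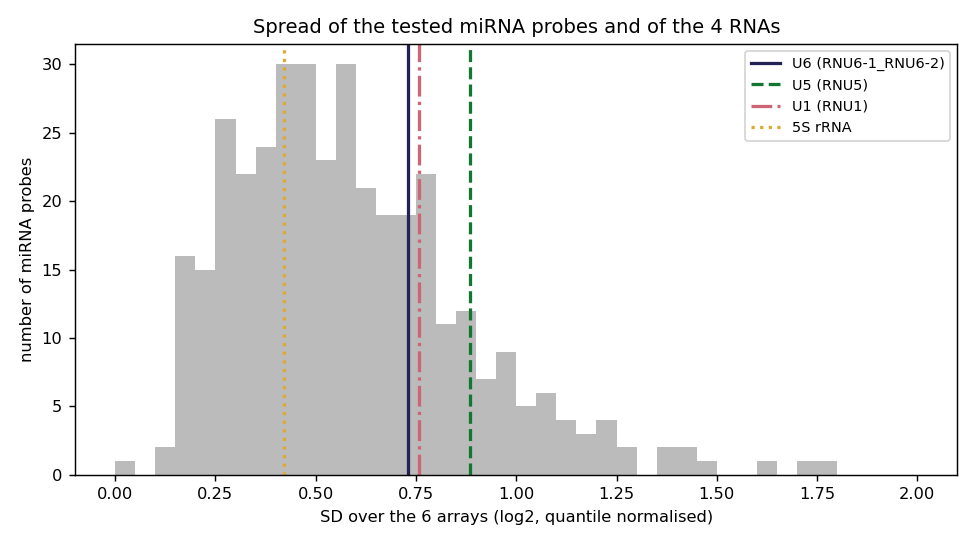
Histogram of the SD over the 6 arrays (horizontal axis, log2 scale after quantile normalisation) of the 372 tested miRNA probes (vertical axis, number of probes), with vertical lines for 5S rRNA at 0.42, U6 at 0.73, U1 at 0.76 and U5 at 0.88. 5S rRNA lies in the body of the histogram and the 3 spliceosomal RNAs to its right.

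With all spots averaged, the spread of U6 and U5 was smaller outside 48 h. Without both arrays of 48 h the SD over the remaining 4 was 0.25 for U6 and 0.53 for U5. Without those of 72 h that of 5S rRNA was 0.28. That of U1 lay between 0.63 and 0.89 with any 1 time left out. The 0.25 of U6 averages spots that disagreed between blocks on the knockdown array of 72 h. On the arrays of 24 and 72 h the U6 intensities ran from 630 to 2565.5 in blocks 1 to 18. In blocks 19 to 36 they ran from 239.5 to 885.5, so U6 was not shown to be level there.

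The 4 RNAs differed in how closely they kept in proportion. The SD over the 6 arrays of the log2 ratio between 2 of them was smallest for U6 and U1, at 0.48, and for U6 and U5, at 0.50. It was 0.88 for U5 and U1, the pair made by RNA polymerase II. The ratio of U6 to 5S rRNA, the pair made by RNA polymerase III, had an SD of 0.86 and changed 5.00-fold between the control arrays of 48 and 72 h. The ratio of U5 to 5S rRNA had an SD of 1.02 and that of U1 to 5S rRNA one of 0.94. Among the 13 small RNAs that were tested, with the mean SD of the ratio to each of the others as the measure, U6 ranked 4, U1 5, U5 8 and 5S rRNA 10 from the steadiest.

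The array also carries probes named spike controls, of which 17 of 62 reached 50 on every array. The labels do not say whether the matching RNA was added. Their mean log2 intensity before scaling came to 9.37 for the control line at 48 h and 10.17 for the knockdown line at 48 h, the lowest and the highest of the 6. U6 and U5 had their lowest and highest array in the same places, and U1 its lowest. Of the 17 probes, 6 had their own lowest log2 value on the control array of 48 h. On the knockdown array of 48 h 7 had their highest. On that array 10 of the 17 had pairs of spots at least 2-fold apart, all lower in the higher-numbered blocks. There were 6 such probes on the control array of 48 h and 2 to 8 on the other arrays. The median gap over the 17 on the knockdown array of 48 h was -1.71, so the mean there depends on the blocks. The median of the 372 tested miRNA probes ran from 8.11 on the knockdown array of 72 h to 8.65 on the knockdown array of 48 h, and was 8.52 on the control array of 48 h, so it did not share the low.

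Relative to the spike control mean the SD over the arrays was 0.58 for U6, against 0.77 before scaling. It was 0.67 for U5, against 0.91, and 0.56 for U1, against 0.71. For 5S rRNA it was 0.66, against 0.54. The 3 spliceosomal RNAs were thus less spread relative to these probes and 5S rRNA more. At 48 h their differences between the lines relative to the spike control mean were 1.60 for U6, 1.79 for U5 and 0.84 for U1, smaller than the 2.40, 2.60 and 1.64 before scaling. The spike control probes themselves had SDs from 0.26 to 1.13, and their part in the movement of the 4 RNAs was not tested.

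**Figure D3:**
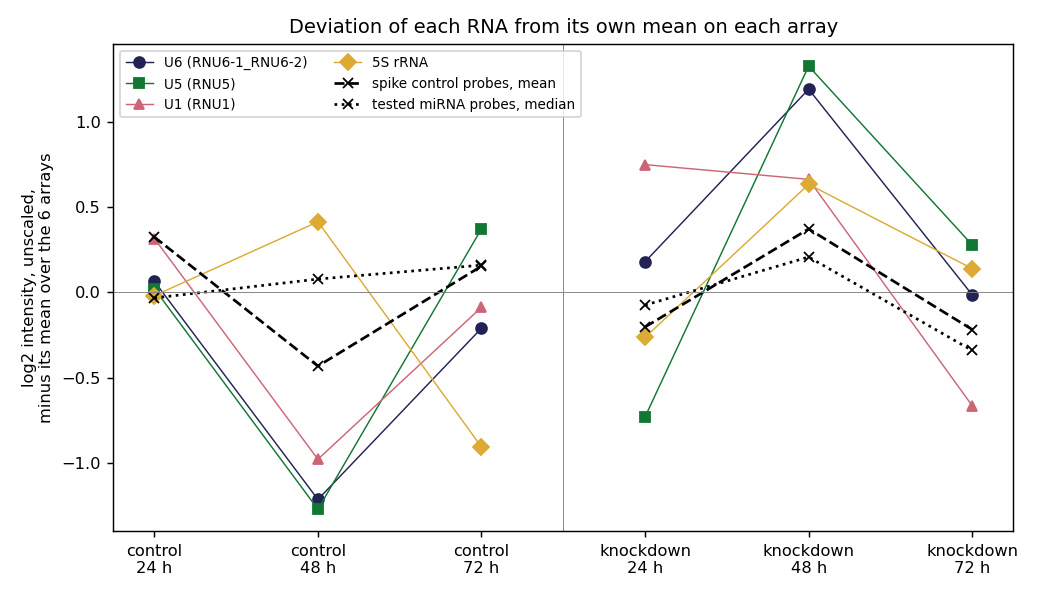
Log2 intensity before scaling of U6, U5, U1 and 5S rRNA on each array minus its own mean over the 6 arrays (vertical axis), by line and time (horizontal axis), with the mean of 17 spike control probes (dashed) and the median of 372 miRNA probes (dotted) treated likewise. On the control array of 48 h U6, U5, U1 and the spike control mean lie below 0 and 5S rRNA above it, and 5S rRNA has its low on the control array of 72 h.

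Each RNA was then used in turn as the reference, by subtracting its log2 intensity on each array from those of all miRNA probes. The median SD over the 6 arrays of the 372 tested miRNA probes was 0.57 with no scaling and 0.54 after quantile normalisation. It was 0.80 with 5S rRNA as the reference, 0.86 with U1, 0.94 with U6 and 1.04 with U5. With the mean of all 4 it was 0.78, and with the spike control mean 0.64. Every one of these references, singly or as a mean, left the miRNA probes more spread over the arrays than no scaling did. The spread of the reference itself enters each of these values, so they are not separate from the SDs given above. No other single probe was tried as a reference, so the values do not set the 4 RNAs apart from other probes.

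Subtracting a reference moves every miRNA probe of an array alike, so the median difference between the lines at a time point follows from the reference's own difference given above and is no separate result. It shows how far the choice of reference moves the miRNA values. At 48 h the median over the 441 miRNA probes measured was 0.19 with no scaling and 0.24 after quantile normalisation. With U6, U5, U1 or 5S rRNA as the reference it was -2.22, -2.41, -1.45 or -0.03. At 72 h, over 454 probes, it was -0.52 with no scaling, -1.57 with 5S rRNA, -0.72 with U6, -0.43 with U5 and 0.05 with U1. At 24 h, over 413 probes, it was 0.75 with U5, 0.24 with 5S rRNA, -0.12 with U6 and -0.44 with U1.

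Over all time points the median difference between the lines was -0.10 after quantile normalisation, -0.49 with 5S rRNA, -0.65 with U1, -0.73 with U5 and -1.05 with U6. In limma none of the 372 miRNA probes passed the threshold with any of these references. The count with an unadjusted p under 0.05 was 5 with U6, 0 with U5, 8 with U1 and 2 with 5S rRNA, and the smallest adjusted p was 0.539, with U6.

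**Figure D4:**
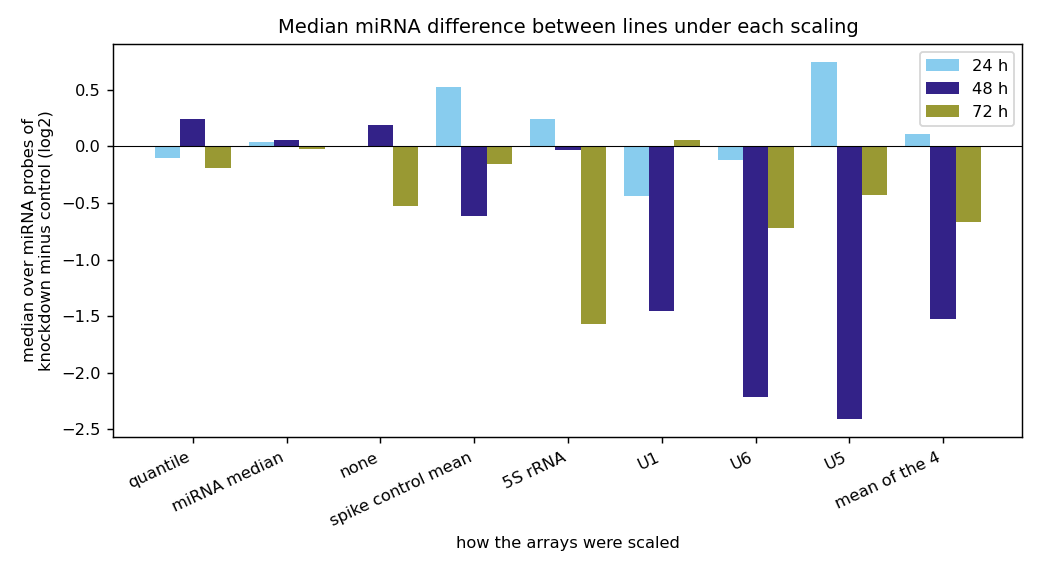
Median over miRNA probes of the log2 difference between the knockdown and the control line at 24, 48 and 72 h (vertical axis, bars from 0) for each way of scaling the arrays (horizontal axis), each bar resting on 1 array of each line. At 48 h the bars of U1, U6 and U5 run from -1.45 to -2.41 while that of 5S rRNA is at -0.03, and at 72 h 5S rRNA has the longest bar, at -1.57.

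Many small nucleolar RNAs guide chemical changes of other RNAs, and some are also used as references. Among them the 9 tested probes had SDs after quantile normalisation from 0.31 to 1.43, with a median of 0.50. The steadiest were SNORD110 at 0.31 and SNORD48 at 0.44. SNORD2 and SNORD3@, named for their intensity, had 1.31 and 0.46. U6, U1 and U5 lay above that median and 5S rRNA below it. SNORD110 reached 50 on every array and SNORD48 on 3 of them.

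A list of 16 miRNAs often used as references had 14 tested members, of which 7 reached 50 on every array. Their SDs ran from 0.28 to 1.36 with a median of 0.75, above the 0.54 of all tested probes and close to those of U6 and U1. The steadiest were miR-361-5p at 0.28 and miR-423-5p at 0.39, and the least steady miR-93-5p at 1.07 and miR-16-5p at 1.36. By intensity miR-361-5p ran from 479 to 1149 and miR-16-5p from 1.75 to 1629.5. The range was 45.75 to 269 for miR-423-5p and 1 to 1220 for miR-93-5p. The small SD of miR-423-5p is thus that of a dim probe, which reached 50 on 5 arrays. The sequences of these 4 are given to show what the reference probes read, from RefSeq (GRCm38.p6), 5′ to 3′, with the seed (bases 2 to 8, which pairs with targets) in capitals.
miR-361-5p: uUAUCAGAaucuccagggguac
miR-423-5p: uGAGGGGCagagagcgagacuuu
miR-93-5p: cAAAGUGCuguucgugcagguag
miR-16-5p: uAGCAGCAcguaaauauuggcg
No 2 of them share a seed.

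The miRNA probes most like each RNA were taken as those with the smallest SD over the 6 arrays of the log2 ratio to it, out of 193 that reached 50 on every array. For U5 this was miR-677-3p, with an SD of 0.26, and for U6 the same probe, with 0.35. Its intensity came to 677, 2304.5 and 907 in the knockdown line at 24, 48 and 72 h, and to 1118.5, 334 and 1114 in the control line, so it too was lowest on the control array of 48 h and highest on the knockdown array of 48 h. Next came miR-706 for U5, at 0.39, and miR-669c-5p for U6, at 0.42. For U1 they were miR-690 at 0.36 and miR-1192 at 0.42. For 5S rRNA they were miR-5109 at 0.25 and miR-214-3p at 0.34. The miR-5109 probe had 1494, 2585 and 3040 in the knockdown line and 1661, 2813 and 923 in the control line. Like 5S rRNA it was lowest on the control array of 72 h and high on the control array of 48 h. Unlike 5S rRNA it was highest on the knockdown array of 72 h. The median SD of the ratio over the 193 probes was 0.94 for U6, 1.06 for U5, 0.86 for U1 and 0.77 for 5S rRNA. These likenesses are a description over 6 arrays that share the shifts of each array. The probes were chosen for them on the same arrays, so shared highs and lows are no separate result.

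The sequences of those that RefSeq (GRCm38.p6) lists, 9 of 11 with the reference miRNAs above, are shown so that the probes which followed the 4 RNAs can be told apart, 5′ to 3′ with the seed in capitals.
miR-677-3p: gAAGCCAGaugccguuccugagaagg
miR-706: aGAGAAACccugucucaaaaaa
miR-690: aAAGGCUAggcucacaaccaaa
miR-1192: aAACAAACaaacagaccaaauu
miR-214-3p: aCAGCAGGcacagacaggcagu
None of them shares a seed with another of the 9.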

How the data were processed

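Per the labels' protocols, Hy3-labelled total RNA was hybridised to a locked nucleic acid array. Per the file headers, the authors deposited foreground and background-subtracted intensities per spot, not scaled between arrays. The authors' deposited ratio per probe equalled the median background-subtracted intensity divided by 1 number per array (313.5 to 397, within 1e-06 for 100% of values). The medians of its columns were 0.358, 0.466 and 0.304 (knockdown at 24, 48 and 72 h) and 0.259, 0.514 and 0.307 (control), the values are linear and not centred, and how the divisors were chosen stays unknown. Scanner, software and genome build are not given in the sources used here. Columns were assigned through the samples' labels.

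For background correction normexp (offset 50) was used from limma 3.58.1 under R 4.3.3, spots averaged on the log2 scale, and arrays quantile normalised over 3461 mouse, viral, unnamed and small RNA probes. Tested were 372 miRNA and 13 small RNA probes that reached a mean intensity of 50 on 3 or more of 6 arrays. limma used trended, robust variances and Benjamini-Hochberg adjustment at 0.05. Arrays are the replicates, but no array repeats the line and time of another. The SD within a line thus mixes time, array and culture, and the spread between cultures alone cannot be estimated. The number of arrays also limits precision.

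The 4 RNAs, the lists and the naming rule (all 4 RNAs, small RNAs of like class, the 2 most like miRNAs of each, the 2 steadiest and 2 least steady listed miRNAs) were chosen with earlier results of these data known. The fit of the lines held time as a factor. Both arrays of 24, 48 and 72 h, each taken relative to its line's mean, correlated at -0.29, -0.52 and -0.34. The numbers thus show neither a time course shared by the lines nor a pairing.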

Additional observations from a re-analysis of the deposited data

Results flagged for a closer look

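At single time points some differences between the lines had opposite signs, each beyond 2 spot standard errors. The change in the difference was not tested, since 1 array of each line stands at a time. For U5 the difference was larger by 3.28 (log2) at 48 h than at 24 h, and the change from 48 to 72 h was -2.96. For U1 the change from 48 to 72 h was -2.27. For 5S rRNA the difference was larger at 72 h by 1.15 than at 24 h and by 1.29 than at 48 h. Spot errors leave out the spread between cultures and arrays, and some of the signs turned with the scaling: U5 at 72 h was 0.41 with median scaling, 5S rRNA at 48 h was 0.22 with none, and 5S rRNA at 24 h was 0.28 with spike control scaling.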

How the results depend on the processing

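None of the 4 RNAs passed the threshold under any alternative (limma adjusted p from 0.800 to 1.00). The lines were also fitted with no replicate block (no term for time). With 1 array of each line at each time this cannot change the differences, 0.67 for U6, 0.35 for U5, 0.45 for U1 and 0.15 for 5S rRNA. Only their p could move, to a limma adjusted p of 0.970 each, and the time pairing changed no call. Without the block and without the control array of 48 h, chosen after seeing the data, the difference was -0.26 for U5 and -0.021 for U1, and the SD of U6 was 0.40. With 1 time left out, the difference ran from -0.070 to 1.15 for U6, from -0.69 to 0.95 for U5, from -0.14 to 1.00 for U1 and from -0.25 to 0.39 for 5S rRNA, the lowest without 48 h except for 5S rRNA (without 72 h), and from 0 to 6 probes passed. The slope ran from -0.51 to 0.13 for U6, from -1.004 to 0.049 for U1 and from -0.57 to 0.40 for 5S rRNA, and the SD from 0.25 to 0.93 for U6, from 0.53 to 1.07 for U5 and from 0.28 to 0.53 for 5S rRNA. The difference of slopes could not be fitted with a time left out, since no residual degrees of freedom remain. For U6 that difference was 0.27 with median scaling, 0.041 with none, 0.33 from the authors' ratios and 0.63 from blocks 1 to 18, where U5 had -0.14. The U6 slope was 0.022 from the authors' ratios and 0.22 from blocks 1 to 18. The SD was 1.50 for U5 and 1.28 for U1 with plain subtraction (floor 16), 1.13 for U6 from the authors' ratios, 1.11 for U6 from blocks 19 to 36 and 0.66 for 5S rRNA with spike control scaling. With plain subtraction the median SD of the miRNA probes was 1.08 with no scaling, 1.06 quantile, 1.08 median, 1.11 spike control, 1.44 U6, 1.82 U5, 1.56 U1, 1.25 5S rRNA and 1.30 with the mean of the 4. At 1.5-fold and 3-fold, 136 and 10 probes differed at 24 h, 285 and 78 at 48 h, and 323 and 97 at 72 h, against 48, 163 and 204 at 2-fold. The cause was not tested.

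Signal over background limits U5 and U1 on the control array of 48 h, where spots lay near or below background. It also limits U6 there, with spots of 50, 139 and 150 beside 1 of 818.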
